A study of Mus musculus with 42 samples.

Results

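The genes described here are 42 genes of meiosis and of the piRNA pathway in the mouse, chosen by symbol from a list of 45. The deposited table held 22186 genes, and Tdrd6, Mei1 and Nanos2 were not analysed here. The study exposed cultured cells to bisphenol S (BPS), a replacement for bisphenol A that can act on oestrogen receptors, and RNA-seq was run on 42 libraries in 14 groups of 3. Induced pluripotent stem cells (iPSCs) of 1 male line, reprogrammed from embryonic fibroblasts that carried a doxycycline-inducible 4-factor transgene, received ethanol vehicle or 1, 50 or 100 µM BPS (the dose series). In the second iPSC experiment cells of the same line received vehicle or 1 µM. Primary Sertoli cells and primary granulosa cells, both from pooled littermates at postnatal day 20, received vehicle or 1 µM. Primordial germ cell-like cells (PGCLCs), made from the iPSCs by way of epiblast-like cells and sorted for FUT4 and ITGB3, were either exposed to vehicle or 1 µM while still in cell aggregates (directly exposed PGCLCs) or made from the iPSCs of the second experiment after those cells had been exposed (derived PGCLCs). Exposure lasted 24 h and was followed by 24 h without BPS, or by 8 h for directly exposed PGCLCs, which were then sorted. A hypotonic shock had been used to remove most germ cells from the Sertoli cultures, which were not fully pure, and oocytes had been washed out of the granulosa cultures. The 3 libraries of a group were separate flasks or plate batches of the same line or pool, so a p-value measures the spread between these samples, part of which may be technical.

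Meiosis is the division by which germ cells become haploid. Its chromosomes are organised on an axis of meiosis-specific cohesin and HORMA-domain proteins, are zipped together by the synaptonemal complex, and exchange DNA after programmed breaks. The piRNA pathway protects the germline: PIWI proteins carry small RNAs that silence transposons, and Tudor-domain proteins, helicases and mitochondrial enzymes make and load those RNAs. Most of these genes are silent in somatic cells, where CG-rich promoters are methylated or bound by repressors of the E2F6 and MGA-MAX type, and they are partly active in naive pluripotent cells and in primordial germ cells, whose DNA is poorly methylated.

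Promoter windows, running from 250 bases before to 50 bases after the RefSeq start on build GRCm38.p6, were matched to 36 of the 42 genes. A gene with several windows was represented by the first one listed, and its other windows were not counted. Stk31 and Tdrd12 had 2 windows each, of which the first is printed below. A window held a median of 20 CG dinucleotides, against 17 in 15790 other genes of the deposited table, and 77.8% of windows held at least 15 of them, against 55.8%. The letters CACGTG, the E-box to which MAX dimers bind, were present in 15 windows (41.7%, against 9.06% of the other genes' windows). The letters TCCCGC, the core of E2F sites, were present on either strand in 16 windows (44.4%, against 30.1%), and 8 windows held both (22.2%, against 3.22%). The 2 motifs can share 1 base at their ends. These shares are descriptions of the windows, with no test. The 4 windows printed here belong to 3 of the genes that rose (Dazl, Meioc and Stk31) and the gene that fell (Tdrd12) in iPSCs at each dose of BPS. Rec8 rose at each dose as well, and its window, at chr14:55617916-55618215 (plus strand), held 18 CG dinucleotides and 1 E2F core and is not printed. They are written 5′ to 3′ on the gene's strand, with matches to either motif in capitals. Dazl lies at chr17:50293571-50293870 (minus strand), Meioc at chr11:102665335-102665634 (plus strand), Stk31 at chr6:49395289-49395588 (plus strand) and Tdrd12 at chr7:35537666-35537965 (minus strand).
Dazl: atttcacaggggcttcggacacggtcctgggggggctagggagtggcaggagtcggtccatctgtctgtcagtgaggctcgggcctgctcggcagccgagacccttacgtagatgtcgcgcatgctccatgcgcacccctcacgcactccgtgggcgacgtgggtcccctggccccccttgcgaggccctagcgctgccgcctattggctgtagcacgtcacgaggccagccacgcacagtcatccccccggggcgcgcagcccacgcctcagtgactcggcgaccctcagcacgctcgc
Meioc: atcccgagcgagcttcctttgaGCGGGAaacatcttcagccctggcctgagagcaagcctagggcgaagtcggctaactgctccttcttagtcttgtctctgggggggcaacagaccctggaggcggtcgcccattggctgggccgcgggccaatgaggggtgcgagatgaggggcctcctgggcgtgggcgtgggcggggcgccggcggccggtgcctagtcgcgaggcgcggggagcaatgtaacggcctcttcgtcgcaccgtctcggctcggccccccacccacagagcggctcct
Stk31: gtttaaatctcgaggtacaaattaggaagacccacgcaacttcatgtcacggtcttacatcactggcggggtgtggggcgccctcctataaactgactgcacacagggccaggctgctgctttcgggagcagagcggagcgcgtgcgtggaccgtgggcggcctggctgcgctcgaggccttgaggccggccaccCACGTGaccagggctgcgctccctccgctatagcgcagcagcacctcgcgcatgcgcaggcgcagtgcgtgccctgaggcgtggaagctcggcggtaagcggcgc
Tdrd12: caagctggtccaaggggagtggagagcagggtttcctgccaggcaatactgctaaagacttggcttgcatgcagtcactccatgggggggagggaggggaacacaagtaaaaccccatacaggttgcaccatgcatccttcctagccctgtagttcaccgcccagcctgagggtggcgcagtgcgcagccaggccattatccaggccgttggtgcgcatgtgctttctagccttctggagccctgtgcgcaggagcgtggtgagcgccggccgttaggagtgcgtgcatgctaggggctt
The Dazl window held 28 CG dinucleotides and neither motif, that of Meioc 28 and an E2F core read on the other strand, that of Stk31 29 and an E-box, and that of Tdrd12 11 and neither motif.

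Libraries held 26693847 to 44524376 reads in genes. Levels are given in CPM, the reads of a gene scaled to a fixed library total. A count of 0 over the 3 granulosa vehicle libraries allows up to 3 reads, or 0.0313 CPM, by counting error alone. Cell identity was checked on marker lists. Vehicle Sertoli cells held 377 ± 7.26 CPM of Wt1 and 336 ± 8.03 CPM of Sox9 (SD, n = 3), and granulosa cells 140 ± 3.05 CPM of Foxl2, against 0.299 ± 0.196 in Sertoli cells. Wt1 and Sox9 were not confined to Sertoli cells. Their log2 differences between dose-series vehicle iPSCs and granulosa cells were −9.27 ± 0.42 and −6.77 ± 0.38 SE, higher in granulosa cells. The FSH receptor gene Fshr stood at only 0.451 ± 0.1303 CPM in granulosa cells. Its log2 difference was −3.91 for iPSCs minus granulosa cells and −6.97 for directly exposed vehicle PGCLCs minus Sertoli cells. PGCLCs and iPSCs differed by 0.0, so Fshr was higher in Sertoli than in granulosa cells. Of the primordial germ cell markers, 5 of 8 were higher and 2 lower in vehicle PGCLCs than in vehicle iPSCs, in both contrasts described below. A few libraries stood apart: replicate 2 of the BPS group in the second iPSC experiment, replicate 2 of the derived vehicle PGCLCs, replicate 2 of the granulosa vehicle cells, and replicate 1 of the directly exposed vehicle PGCLCs, in which 5 ribosomal and other structural RNAs (a list chosen after values were seen) summed to as much as 9851 CPM. The libraries of the 1 µM group of the dose series all differed from each other. Between replicates, the mean chi-square of reads per gene was 21.1 to 28.2 in that group and 3.64 to 8.25 in its vehicle group. Replicate 3 of the PGCLCs derived from exposed iPSCs stood apart too. Its pairs had mean chi-squares of 16.5 and 14.3, against 7.06 for the pair of replicates 1 and 2. For Sycp3, exons of Chpt1 on the opposite strand covered 52.2% of the exon bases, for Tdrkh those of Oaz3 covered 36.7%, and the strand setting of the counting is not given in the sources used here, so reads of these pairs cannot be told apart. Msh5, Tex14 and Slc25a31 had additional rows with a suffixed symbol, and their levels are uncertain for that reason.

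The 42 genes fall into 7 groups by function. The group labelled translation regulators holds Dazl, Ddx4 and Stk31, of which only Dazl is described below by that role. Genes of meiotic entry are Stra8, Meioc and Ythdc2. The synaptonemal complex group holds Sycp1, Sycp2, Sycp3, Syce1, Syce2 and Tex12, the axis and cohesin group Stag3, Rec8, Smc1b, Hormad1 and Hormad2, and the recombination group Dmc1, Spo11, Msh4, Msh5, Tex11 and Tex15. The piRNA group, with 14 genes, holds Piwil1, Piwil2, Piwil4, Mael, Tdrd1, Tdrd5, Tdrd9, Tdrd12, Tdrkh, Asz1, Mov10l1, Pld6, Gtsf1 and Rnf17, and the spermatogenic differentiation group Tex14, Tex101, Taf7l, Brdt and Slc25a31.

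Most of these genes were detected at low levels in iPSCs, PGCLCs and Sertoli cultures and far fewer in granulosa cells. In iPSC vehicle libraries of the dose series 30 of 42 genes had a mean of at least 0.5 CPM, in Sertoli cells 37, in directly exposed vehicle PGCLCs 36 and in granulosa cells 14. Among the vehicle groups only granulosa cells lacked reads of any of them, and did so for 5 genes: Hormad1, Spo11, Stra8, Tex101 and Piwil1. Tex12 was the gene that stayed under 0.5 CPM in every vehicle group, and it was tested in none of the cell type contrasts. Summed over the 42 genes, the level ranged from 420 to 431 CPM in dose-series iPSCs, from 303 to 311 CPM in directly exposed vehicle PGCLCs, from 173 to 190 CPM in Sertoli cells and from 122 to 127 CPM in granulosa cells. In bulk libraries, fewer cells of a type and less RNA per cell cannot be told apart.

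**Figure D1:**
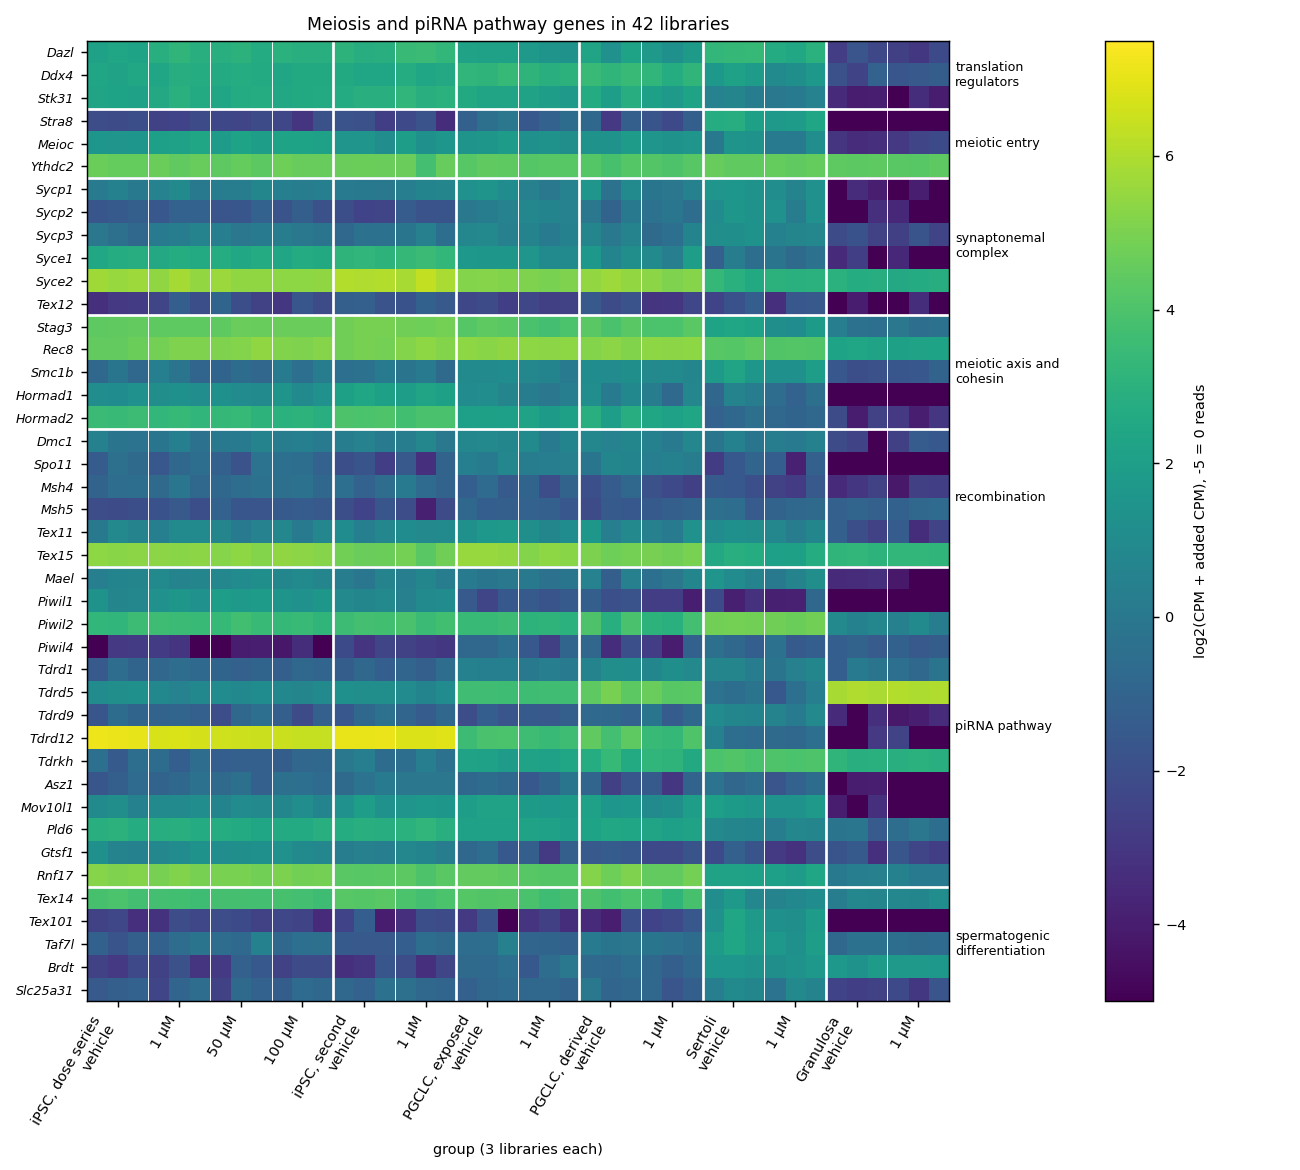
Levels of the 42 genes (rows, by function) in 42 libraries (columns, 3 per group), as log2 of CPM plus the added CPM of 0.0313, on a colour scale from dark (0 reads) to yellow. Granulosa columns are dark for most rows apart from Tdrd5, Tdrkh, Tex15, Syce2, Ythdc2, Rec8 and Brdt, and Tdrd12 is brightest in iPSCs.

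Per kilobase of exon, a short list of genes led in each cell type. Tdrd12, a helicase and Tudor protein that works in secondary piRNA production, stood at 32.1 ± 1.504 CPM per kb in vehicle iPSCs of the dose series (SD, n = 3), above Syce2, a central element protein of the synaptonemal complex, at 25.7 ± 1.19. The meiotic cohesin subunit gene Rec8 followed at 8.04 ± 0.736. In the second iPSC experiment Syce2 (33.5 ± 0.963 CPM per kb) and Tdrd12 (31.8 ± 0.461) were close together, ahead of Rec8 (10.03 ± 0.551). The same 3 genes led in both iPSC experiments. In directly exposed vehicle PGCLCs the order was Syce2 (18.4 ± 0.678 CPM per kb), Rec8 (13.9 ± 0.682) and Tex15 (4.82 ± 0.151), a gene needed for meiotic break repair and for piRNA-directed silencing. Derived vehicle PGCLCs held Syce2 at 23.7 ± 1.70, Rec8 at 12.6 ± 0.856 and Rnf17, a Tudor and RING-finger protein of piRNA granules, at 5.16 ± 0.803 CPM per kb. Sertoli cells were led by Rec8 (6.67 ± 0.489 CPM per kb), by the PIWI gene Piwil2 (5.43 ± 0.106) and by Syce2 (4.01 ± 1.07). Granulosa cells were led by Tdrd5 (8.78 ± 0.345 CPM per kb), a Tudor-domain gene of piRNA biogenesis, then by Syce2 (3.60 ± 0.335) and by the RNA helicase gene Ythdc2 (2.36 ± 0.0404), which acts at meiotic entry and is also used in other tissues.

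Sertoli and granulosa cultures, the somatic partners of male and female germ cells, differed in members of every group of these genes. Stra8, Tex101 and Dazl were well detected in Sertoli cultures and near or at 0 in granulosa cultures, whereas Tdrd5 ran the other way. Of the 41 members tested, 33 were higher in Sertoli cells (33.7% of all genes were called higher) and 2 were lower (35.9%). Calls are those of limma, a linear model fitted across all genes, at a Benjamini-Hochberg adjusted p of at most 0.05. The median log2 difference of the members was 3.24 (3.25 with genes of 0 to 3 reads at their bound or read ratio), against a median of −0.014 over all genes tested.

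Stra8 (chr6:34920163-34939344, plus strand, GRCm38), which germ cells switch on in response to retinoic acid before meiosis, stood at 6.72, 6.88 and 4.31 CPM in the 3 Sertoli vehicle libraries and had 0 reads in the 3 granulosa libraries, at least 192-fold lower. Tex101, a surface protein gene of germ cells, stood at 2.49, 5.18 and 3.31 CPM against 0 reads, at least 118-fold lower. Neither was detectable in granulosa libraries at this depth, and both were present in each Sertoli library. The Sertoli medium contained retinoic acid, which is not stated for the granulosa medium. Medium and cell type cannot be told apart in this contrast. Mov10l1, the helicase gene of primary piRNA processing, stood at 4.19, 3.52 and 3.04 CPM against 3 reads in all granulosa libraries, a ratio of 115 with a counting interval of 38.9 to 559. Sycp2, of the lateral element of the synaptonemal complex, stood at 2.00, 3.08 and 2.62 CPM against 2 reads, a ratio of 123 (33.8 to 1026). Dazl, an RNA-binding protein that activates translation in germ cells, stood at 9.57, 10.02 and 10.3 CPM against 0.118, 0.277 and 0.171 CPM (log2 difference 5.57 ± 0.24 SE, adjusted p = 1.15e-13). None of these 5 genes had overlapping values between the cell types.

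Tdrd5 (chr1:156255296-156303664, minus strand) was the reverse, at 59.2, 63.6 and 59.9 CPM in granulosa cells and 0.816, 0.691 and 0.847 CPM in Sertoli cells (log2 difference −6.23 ± 0.13 SE, adjusted p = 1.89e-18). Tex15 was also higher in granulosa cells, at 9.01, 9.72 and 8.53 CPM against 5.86, 7.19 and 6.58 CPM (−0.47 ± 0.081 SE, adjusted p = 3.48e-05). The other called members were higher in Sertoli cells, and they included all 3 translation regulators tested, all 5 genes of the axis and cohesin group and 11 of the 14 piRNA genes. Brdt, a bromodomain gene of spermatogenic cells, stood at 3.09, 2.61 and 3.69 CPM in granulosa cells and 2.89, 2.90 and 2.66 CPM in Sertoli cells, and the ranges overlapped. Germ cell markers that are not members moved in the same comparison. Of 8 spermatogonia markers, 7 were higher in Sertoli cultures and 1 lower (median log2 2.48), with Kit at 3.88 ± 0.411 CPM and Sall4 at 1.35 ± 0.257 CPM in Sertoli cells, and the list summed to 357 to 375 CPM in Sertoli and 159.5 to 177 CPM in granulosa libraries. Much of that sum is Uchl1 (345 ± 8.86 CPM in Sertoli cells, 160.5 ± 10.6 CPM in granulosa cells). Of 4 spermatid markers measured, Spaca1 stood at 3.05 ± 0.548 CPM in Sertoli and 0.313 ± 0.00954 CPM in granulosa cells, and Acr had no read in either. Gapdhs stood at 2.77 ± 0.333 CPM in Sertoli and 3.64 ± 0.587 CPM in granulosa cells, and Tssk6 at 1.05 ± 0.0961 and 1.29 ± 0.131 CPM. The part of remaining germ cells in the Sertoli levels was not tested.

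**Figure D2:**
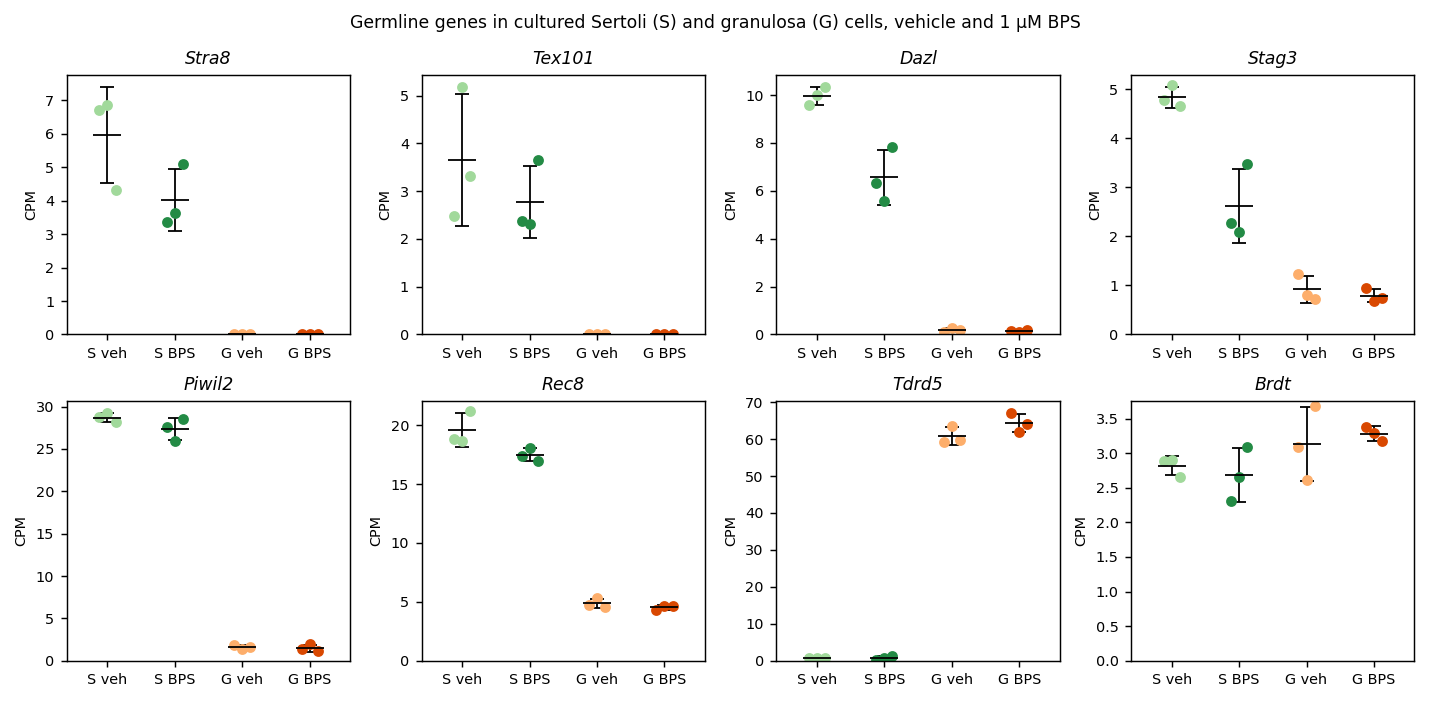
CPM (linear axis from 0) of 8 genes in Sertoli (S) and granulosa (G) libraries with vehicle (veh) or 1 µM BPS; points are libraries, the long bar is the mean and the whiskers are SD (n = 3). Stra8 and Tex101 are at 0 in granulosa cells, Tdrd5 stands near 60 CPM there, and Dazl and Stag3 of BPS-exposed Sertoli libraries lie below those of vehicle.

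Naive iPSCs also held far more germline RNA than granulosa cells, led by Tdrd12 and the HORMA-domain genes. Of 41 members tested, 34 were higher in iPSCs of the dose series (45.4% of all genes) and 6 lower (43%), with a median log2 difference of 2.95 against 0.047 over all genes. Tdrd12 stood at 143, 143 and 132 CPM in iPSCs against 3 reads in the granulosa libraries, a ratio of 4445 (counting interval 1521 to 21559). Hormad1, an axis protein that recruits the recombination machinery, stood at 2.18, 2.06 and 2.48 CPM against 0 reads, at least 71.4-fold higher. Its paralogue Hormad2 stood at 11.6, 11.2 and 11.98 CPM against 0.206, 0.0307 and 0.137 CPM (6.42 ± 0.34 SE, adjusted p = 7.54e-13). Syce1, of the central element, stood at 5.50, 6.56 and 6.94 CPM against 0.0589, 0.123 and 0 CPM (6.38 ± 0.43 SE, adjusted p = 4.18e-11). No iPSC library overlapped a granulosa library for these 4 genes. Lower in iPSCs were Tdrd5 (2.00, 2.23 and 2.41 CPM, −4.77 ± 0.13 SE, adjusted p = 2.03e-17) and Brdt (0.143, 0.0999 and 0.183 CPM, −4.21 ± 0.33 SE, adjusted p = 4.27e-10). Tdrkh, which anchors piRNA processing to mitochondria, stood at 0.714, 0.333 and 0.694 CPM against 8.92, 7.23 and 7.65 CPM (−3.77 ± 0.26 SE, adjusted p = 6.90e-11), and Piwil4, the nuclear PIWI gene, at 0, 0.0999 and 0.110 CPM against 0.383, 0.461 and 0.341 CPM (−2.35 ± 0.56 SE, adjusted p = 7.29e-04).

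Between PGCLCs and Sertoli cultures, levels of germline genes differed in both directions, with shares called below those of all genes. Of 41 members tested, 17 were higher in directly exposed vehicle PGCLCs (46.6% of all genes) and 13 were higher in Sertoli cells (40.8%), with a median log2 difference of 0.42 against 0.13 over all genes. Neither share of members was above that of all genes. The axis and cohesin group was mostly higher in PGCLCs (4 of 5) and the spermatogenic differentiation group mostly higher in Sertoli cells (4 of 5). Tdrd12 stood at 11.7, 15.3 and 15.5 CPM in PGCLCs and 1.37, 0.691 and 0.616 CPM in Sertoli cells (4.02 ± 0.39 SE, adjusted p = 1.29e-08), and Tdrd5 at 12.5, 12.8 and 12.4 against 0.816, 0.691 and 0.847 CPM (3.95 ± 0.13 SE, adjusted p = 4.12e-16). Tex14, needed for the bridges between germ cells, stood at 18.3, 17.2 and 17.9 against 2.15, 3.21 and 1.69 CPM (2.95 ± 0.17 SE, adjusted p = 2.87e-12), and Tex15 at 46.9, 47.5 and 44.7 against 5.86, 7.19 and 6.58 CPM (2.82 ± 0.081 SE, adjusted p = 6.42e-17). Every PGCLC library exceeded every Sertoli library for these 4 genes. In the other direction Tex101 stood at 0.105, 0.257 and 0 CPM in PGCLCs (−5.04 ± 0.71 SE, adjusted p = 2.30e-06) and Stra8 at 0.420, 0.740 and 0.951 CPM (−3.07 ± 0.44 SE, adjusted p = 2.72e-06), both below every Sertoli library. Tdrd9, a piRNA helicase gene, stood at 0.210, 0.386 and 0.276 CPM against 2.00, 1.66 and 1.502 CPM in Sertoli cells (−2.47 ± 0.42 SE, adjusted p = 2.23e-05). Taf7l, a germ cell TFIID subunit on the X chromosome, stood at 0.665, 0.676 and 1.32 CPM against 3.64, 5.05 and 3.70 CPM (−2.24 ± 0.27 SE, adjusted p = 3.20e-07).

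Between iPSCs and PGCLCs some piRNA and synaptonemal complex genes were higher and others lower, in 2 contrasts that share no library. One lies within the second iPSC experiment. The other contrast sets directly exposed vehicle PGCLCs against dose-series iPSCs, which were labelled as a preliminary series. Cell type and experiment cannot be told apart there. Tdrd5, Tdrkh, Tdrd1, Spo11, Sycp2, Sycp3, Rec8, Smc1b, Ddx4, Brdt and Taf7l were higher in both, and Tdrd12, Piwil1, Gtsf1, Hormad2, Syce1, Syce2 and Ythdc2 were lower in both. In the second iPSC experiment and its derived vehicle PGCLCs, 12 of 41 members tested were higher in PGCLCs (35.9% of all genes) and 11 lower (37.4%), with a median of 0.16 against −0.0099 over all genes. Between directly exposed vehicle PGCLCs and dose-series iPSCs 18 were higher (37.7%) and 9 lower (37.3%), with a median of 0.31 against 0.0043. Of the 31 genes called in either, 11 were higher in both, 7 were lower in both and 1, Rnf17, was called in opposite directions, or 35.5%, 22.6% and 3.2%. Over all genes called in either contrast the shares were 33.2%, 33.5% and 4.7%. Of the 4 shares of members called, only that of genes higher in directly exposed PGCLCs was above the share of all genes.

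Among the genes that were higher, Tdrd5 went from 2.39, 2.26 and 2.24 CPM in iPSCs to 21.1, 30.3 and 20.3 CPM in derived PGCLCs (3.34 ± 0.13 SE, adjusted p = 3.11e-14), and from 2.00, 2.23 and 2.41 to 12.5, 12.8 and 12.4 CPM in the other contrast (2.49 ± 0.13 SE, adjusted p = 2.06e-12). Tdrkh went from 0.957, 1.23 and 0.632 to 6.70, 10.5 and 6.18 CPM (3.02 ± 0.26 SE, adjusted p = 5.47e-09) and from 0.714, 0.333 and 0.694 to 4.52, 4.41 and 3.56 CPM (2.84 ± 0.26 SE, adjusted p = 1.16e-08). Neither gene overlapped between the cell types in either contrast. Spo11, the enzyme that makes meiotic breaks, went from 0.221, 0.264 and 0.126 to 0.863, 1.64 and 1.54 CPM (2.55 ± 0.42 SE, adjusted p = 2.30e-05). Tdrd1, a scaffold of piRNA granules, went from 0.368, 0.558 and 0.379 to 1.47, 2.26 and 2.19 CPM (2.10 ± 0.33 SE, adjusted p = 1.21e-05). In the other contrast the largest rises beside Tdrd5 and Tdrkh were those of Piwil4, from 0, 0.0999 and 0.110 to 0.525, 0.515 and 0.706 CPM (2.86 ± 0.56 SE, adjusted p = 1.46e-04), and of Brdt, from 0.143, 0.0999 and 0.183 to 0.595, 0.579 and 0.706 CPM (1.95 ± 0.33 SE, adjusted p = 2.95e-05). Piwil4 rested on few reads in iPSCs, and 1 of its libraries had none.

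Among the genes that were lower, Tdrd12 went from 136, 138 and 140 CPM in iPSCs to 21.6, 13.6 and 20.8 CPM in derived PGCLCs (−2.92 ± 0.39 SE, adjusted p = 2.01e-06) and from 143, 143 and 132 to 11.7, 15.3 and 15.5 CPM in the other contrast (−3.31 ± 0.39 SE, adjusted p = 3.63e-07). Piwil1, the PIWI gene of pachytene spermatocytes, went from 1.84, 1.64 and 1.80 to 0.403, 0.229 and 0.253 CPM (−2.49 ± 0.38 SE, adjusted p = 8.59e-06) and from 2.53, 1.57 and 1.72 to 0.315, 0.161 and 0.307 CPM (−2.77 ± 0.38 SE, adjusted p = 2.18e-06). The highest PGCLC library lay below the lowest iPSC library for both genes. Syce1 went from 8.87, 9.48 and 8.56 to 3.19, 1.54 and 2.22 CPM (−2.00 ± 0.43 SE, adjusted p = 3.94e-04). Gtsf1, a zinc-finger partner of PIWI proteins, went from 1.21, 1.32 and 1.23 to 0.316, 0.360 and 0.309 CPM (−1.84 ± 0.41 SE, adjusted p = 5.92e-04) and from 2.36, 1.47 and 1.39 to 0.560, 0.676 and 0.307 CPM (−1.72 ± 0.41 SE, adjusted p = 0.00104). Hormad2 was lower in both contrasts (−1.47 and −1.46). Rnf17 rose from 19.9, 19.05 and 19.9 to 36.1, 26.5 and 33.9 CPM (0.70 ± 0.10 SE, adjusted p = 6.63e-06) with derived PGCLCs and fell from 36.9, 34.1 and 35.9 to 22.7, 22.6 and 20.9 CPM (−0.69 ± 0.10 SE, adjusted p = 7.32e-06) with directly exposed PGCLCs, without overlap in either. The 2 PGCLC groups did not have the same history, since ethanol was given to the aggregates in one and to the starting iPSCs in the other. Rnf17 also differed between the vehicle iPSCs. It stood at 19.05 to 19.9 CPM in the second iPSC experiment and at 34.1 to 36.9 CPM in the dose series. The source of the reversal was not tested. Dazl was lower in derived PGCLCs (−0.96, adjusted p = 0.00139) and did not pass the test in the other contrast (−0.092, adjusted p = 0.741). In the same comparisons the mesoderm and endoderm genes (10, chosen after values were seen) were higher in 9 of 10 cases in each contrast (median 2.14 and 2.07), 6 and 5 of 8 pluripotency markers fell, and of 15 regulators of germline gene silencing 8 and 12 were lower and 3 and 2 higher (Dnmt3a in both). Tet1, which works against silencing, is among those lower in both (−0.53 ± 0.087 and −0.33 ± 0.087). Their part in the result was not tested.

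BPS changed a small set of germline genes in iPSCs. Dazl, Stk31, Meioc and Rec8 rose at 1, 50 and 100 µM, and Tdrd12 fell at each. At 1 µM, 5 of 35 members tested rose (5.61% of all genes) and 1 fell (2.94%). At 50 µM, 7 rose (13.1%) and 3 fell (13.3%), and at 100 µM, 6 rose (15.3%) and 4 fell (15.4%). For genes that rose, the share of members called was above that of all genes at 1 and 50 µM and near it at 100 µM, and for genes that fell it was near or below it. Member medians were 0.13, −0.018 and 0.12 on the log2 scale at 1, 50 and 100 µM, against −0.0084, −0.0034 and −3e-04 over all genes. The 7 members too low to be tested were Brdt, Msh5, Piwil4, Stra8, Sycp2, Tex12 and Tex101. The 3 comparisons share their vehicle libraries, so the doses are not independent of each other. Rec8 and Dazl were called at each dose in every other processing that was tried. Tdrd12, Stk31 and Meioc were called at no dose with all 42 libraries in 1 fit.

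**Figure D3:**
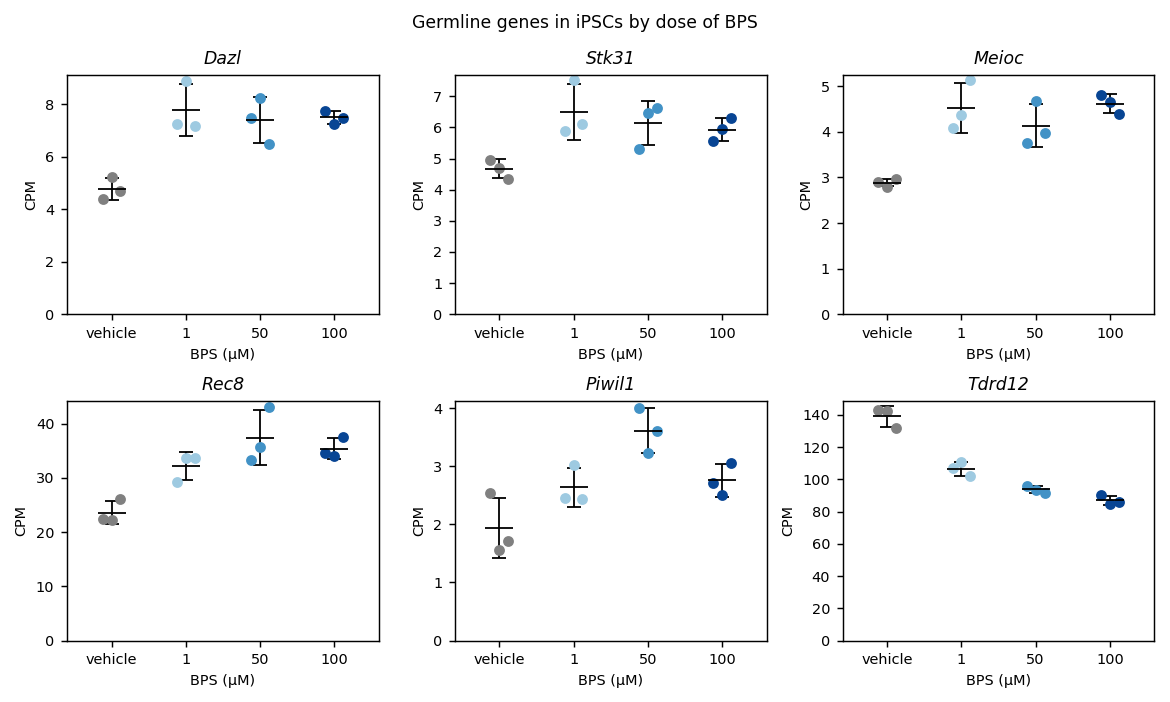
CPM (linear axis from 0) of 6 genes in iPSCs of the dose series against the dose of BPS in µM; points are libraries, the long bar is the mean and the whiskers are SD (n = 3). All BPS libraries lie above vehicle for Dazl, Stk31, Meioc and Rec8 and below it for Tdrd12.

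Of the translation regulators, Dazl stood at 4.39, 5.23 and 4.68 CPM with vehicle. It rose to 7.23, 8.90 and 7.16 CPM at 1 µM (0.70 ± 0.11 SE, adjusted p = 5.33e-04), 7.47, 8.25 and 6.49 CPM at 50 µM (0.63 ± 0.11 SE, adjusted p = 3.55e-04) and 7.75, 7.25 and 7.48 CPM at 100 µM (0.65 ± 0.11 SE, adjusted p = 2.11e-04). Every BPS library exceeded every vehicle library, and the levels of the 3 doses overlapped. Stk31, a germ cell Tudor protein with a kinase-like domain, stood at 4.96, 4.70 and 4.35 CPM with vehicle. It rose to 5.88, 7.54 and 6.11 CPM at 1 µM (0.47 ± 0.11 SE, adjusted p = 0.0142), 5.32, 6.45 and 6.63 CPM at 50 µM (0.39 ± 0.11 SE, adjusted p = 0.0164) and 5.55, 5.93 and 6.31 CPM at 100 µM (0.34 ± 0.11 SE, adjusted p = 0.0270). No BPS library overlapped vehicle, but the call ended at each dose when vehicle replicate 3 was left out, and it was kept in 5, 3 and 2 of the 6 fits that left out a library at 1, 50 and 100 µM. Ddx4, the germ cell RNA helicase also known as Vasa, was called at 50 µM alone, where it went from 5.25, 4.63 and 5.33 CPM to 6.22, 6.61 and 6.11 CPM (0.32 ± 0.11 SE, adjusted p = 0.0429). Leaving out any of the 6 libraries ended that call.

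Of the genes of meiotic entry, Meioc, a partner of Ythdc2 that sustains the meiotic programme, stood at 2.89, 2.80 and 2.96 CPM with vehicle. It rose to 4.08, 4.38 and 5.14 CPM at 1 µM (0.64 ± 0.12 SE, adjusted p = 0.00216), 3.75, 4.68 and 3.98 CPM at 50 µM (0.51 ± 0.12 SE, adjusted p = 0.00348) and 4.81, 4.66 and 4.39 CPM at 100 µM (0.67 ± 0.12 SE, adjusted p = 3.35e-04). No BPS library reached down to the vehicle range. Ythdc2 itself passed the test at no dose (−0.033, −0.17 and 0.039), and Stra8 was below the filter.

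Of the axis and cohesin genes, Rec8 (chr14:55618037-55625395, plus strand) stood at 22.4, 22.3 and 26.1 CPM with vehicle. It rose to 29.3, 33.7 and 33.6 CPM at 1 µM (0.45 ± 0.086 SE, adjusted p = 0.00296), 33.3, 35.8 and 43.1 CPM at 50 µM (0.66 ± 0.086 SE, adjusted p = 2.62e-05) and 34.6, 34.0 and 37.5 CPM at 100 µM (0.59 ± 0.086 SE, adjusted p = 6.82e-05). All BPS libraries were above vehicle. Hormad2 fell at the higher doses, from 11.6, 11.2 and 11.98 CPM to 9.90, 10.4 and 8.34 CPM at 50 µM (−0.28 ± 0.089 SE, adjusted p = 0.0255) and 7.82, 8.35 and 7.28 CPM at 100 µM (−0.57 ± 0.089 SE, adjusted p = 1.32e-04), and the call at 50 µM was kept in 3 of the 6 fits that left out a library. At 1 µM Hormad2 stood at 9.4998, 10.2 and 9.39 CPM (−0.25, adjusted p = 0.0828). Stag3, a cohesin partner of Rec8, rose at 100 µM from 21.3, 21.7 and 22.2 to 25.04, 24.8 and 25.3 CPM (0.20 ± 0.064 SE, adjusted p = 0.0202), a call kept in 3 of 6 such fits. At 1 µM Stag3 stood at 21.4, 21.0 and 21.3 CPM and overlapped vehicle.

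In the synaptonemal complex group Sycp3, of the lateral element, went from 0.928, 0.733 and 0.548 CPM to 1.08, 1.18 and 1.46 CPM at 1 µM (0.75 ± 0.22 SE, adjusted p = 0.0438). The groups did not overlap, but the call was kept in only 2 of the 6 fits that left out a library, ending without vehicle replicate 2 or 3 or BPS replicate 2 or 3. Syce2 fell at 100 µM from 52.6, 48.0 and 51.2 to 41.0, 41.5 and 43.3 CPM (−0.27 ± 0.078 SE, adjusted p = 0.0130). None of the 5 recombination genes tested was called at any dose, and Tex15, the most abundant of them in CPM, stood at 41.9, 38.6 and 39.6 CPM with vehicle and 40.3, 39.0 and 39.6 CPM at 1 µM.

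In the piRNA pathway Tdrd12 stood at 143, 143 and 132 CPM with vehicle. It fell to 107, 111 and 102 CPM at 1 µM (−0.38 ± 0.050 SE, adjusted p = 9.87e-05), 96.1, 93.7 and 91.7 CPM at 50 µM (−0.57 ± 0.050 SE, adjusted p = 4.94e-07) and 90.3, 84.6 and 85.8 CPM at 100 µM (−0.68 ± 0.050 SE, adjusted p = 9.37e-08). Each dose lay wholly below the next lower dose, and all lay below vehicle. Rnf17 fell from 36.9, 34.1 and 35.9 CPM to 31.3, 31.4 and 28.3 CPM at 50 µM (−0.23 ± 0.069 SE, adjusted p = 0.0183) and 32.6, 28.3 and 29.4 CPM at 100 µM (−0.25 ± 0.069 SE, adjusted p = 0.0113), without overlap, and these were calls that ended at both doses without vehicle replicate 1. Piwil1 rose from 2.53, 1.57 and 1.72 CPM to 3.997, 3.22 and 3.60 CPM at 50 µM (0.91 ± 0.17 SE, adjusted p = 5.65e-04) and 2.71, 2.51 and 3.06 CPM at 100 µM (0.53 ± 0.17 SE, adjusted p = 0.0208), where 1 BPS library lay within the vehicle range and the call was kept in 3 of 6 fits that left out a library. At 1 µM Piwil1 stood at 2.46, 3.02 and 2.43 CPM (0.46, adjusted p = 0.0904). Taf7l, in the spermatogenic group, rose at 50 µM from 0.428, 0.266 and 0.402 to 0.660, 0.569 and 1.37 CPM (1.10 ± 0.33 SE, adjusted p = 0.0180), and the call ended without vehicle replicate 2 or without BPS replicate 3, the highest library. Leaving out BPS replicate 3 at 50 µM reduced the number of members called from 10 to 5, and the share of all genes called in that fit is not given here.

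Other genes of the pathway, from a list of 30 of which 27 were in the table, moved less uniformly. At 1 µM, 2 of 20 tested rose and none fell. The genes that rose were Fkbp6, a piRNA co-chaperone (0.47 ± 0.082 SE, adjusted p = 0.00149), and Tex19.1, a transposon-control gene of germ cells (0.31 ± 0.068 SE, adjusted p = 0.00845). At 50 µM 3 rose and 4 fell, with Prdm9, which places recombination sites, at 0.70 ± 0.19 SE, adjusted p = 0.0121, and at 100 µM 1 rose and 6 fell. Of 15 regulators of germline gene silencing, Dnmt3l, the cofactor of de novo methylation, rose at each dose (0.82 ± 0.096 SE, adjusted p = 3.89e-05 at 1 µM, 0.81 ± 0.096 SE, adjusted p = 9.94e-06 at 50 µM and 0.66 ± 0.096 SE, adjusted p = 6.84e-05 at 100 µM) and Dnmt3b fell at each (−0.19 ± 0.052 SE, adjusted p = 0.0271 at 1 µM). Pluripotency markers were not called at 1 µM (0 of 8), and 1 of 8 rose at each higher dose. Of 8 primordial germ cell markers 3, 4 and 4 fell at 1, 50 and 100 µM and none rose. Tfap2c, a transcription factor of primordial germ cells, stood at 59.96 ± 3.15 CPM with vehicle, 43.1 ± 5.15 CPM at 1 µM (−0.48 ± 0.071 SE, adjusted p = 3.13e-04), 39.8 ± 2.52 CPM at 50 µM and 41.7 ± 0.945 CPM at 100 µM. Prdm1 and Dppa3 fell at each dose as well (−0.40 ± 0.073 and −0.32 ± 0.082 at 1 µM), and none of these 3 overlapped vehicle. Of 6 spermatogonia markers tested 2, 4 and 2 fell and 0, 1 and 1 rose, with Uchl1 at −0.42 ± 0.059 and Lin28a at −0.29 ± 0.054 at 1 µM. The ribosomal and structural RNAs summed to 658 to 3044 CPM with vehicle, 462 to 4726 CPM at 1 µM, 380 to 578 CPM at 50 µM and 384 to 615 CPM at 100 µM. The part of these in the result was not tested.

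The second iPSC experiment repeated the 1 µM exposure with its own vehicle libraries, and no member passed the test. By limma, 0 of 32 members tested passed (0.0128% of all genes in either direction), 3 were higher and 2 lower at an unadjusted p under 0.05, and a limma-voom fit of the recovered reads called none of them. The median was 0.031 against 0.0029 over all genes. Dazl stood at 8.57, 6.93 and 7.36 CPM with vehicle and at 10.9, 11.3 and 9.74 CPM with BPS (0.48 ± 0.11 SE, adjusted p = 0.318). Rec8 stood at 27.7, 30.9 and 29.7 CPM with vehicle and at 36.4, 41.6 and 36.5 CPM with BPS (0.37 ± 0.083 SE, adjusted p = 0.318). Tdrd12 stood at 136, 138 and 140 CPM with vehicle and at 113, 114 and 119.7 CPM with BPS (−0.26 ± 0.057 SE, adjusted p = 0.318). The libraries of the 2 groups did not overlap for these 3 genes, and the signs were those seen at 1 µM in the dose series. The 3 genes were named after their values were seen, and the share of all genes without overlap is not given here. Meioc and Stk31, which also rose in the dose series, were not called. The median was 0.23 for the 3 translation regulators and −0.060 for the 2 meiotic entry genes tested. In the dose series at 1 µM these medians were 0.47 and 0.30. BPS replicate 2 of this experiment stood apart, with Ythdc2 at 13.7 CPM against 23.7 to 25.9 CPM in the other libraries. Without it 5 members were called: Dazl (log2 difference 0.44) and Rec8 (0.31) were higher, and Tex14 (−0.27), Tdrd12 (−0.25) and Syce2 (−0.15) were lower. The share of all genes called in that fit is not given here, so the count cannot be set against it. The test of the difference between the responses of the 2 experiments called 0 of 35 members (0% of all genes), with 0 at an unadjusted p under 0.05 and 0 by limma-voom. The difference of responses was −0.21 ± 0.16 (SE) for Dazl and −0.076 ± 0.12 for Rec8.

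In directly exposed PGCLCs the members that changed fell. They came from the translation, synaptonemal complex, axis, recombination, piRNA and spermatogenic groups, with Sycp1, Hormad1, Dazl and Tex11 changed most. Of 35 members tested, 13 fell (11.3% of all genes) and 0 rose (15.4%), with 19 lower at an unadjusted p under 0.05 and 13 called lower by limma-voom. The median was −0.26 against 0.016 over all genes, and 32 of 35 differences were negative. The summed level of the 42 genes was 303 to 311 CPM with vehicle and 259 to 271 CPM with BPS. By group, 2 of 3 translation regulators, 2 of 5 axis and cohesin genes and 4 piRNA genes fell.

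Sycp1, the transverse filament of the synaptonemal complex, went from 2.45, 2.70 and 2.06 CPM to 1.32, 0.974 and 1.43 CPM (−0.94 ± 0.19 SE, adjusted p = 0.00192). Syce1 went from 3.15, 2.99 and 3.07 to 2.86, 1.87 and 1.97 CPM (−0.48 ± 0.16 SE, adjusted p = 0.0401). Hormad1 went from 2.00, 2.19 and 1.57 to 1.15, 0.948 and 1.23 CPM (−0.77 ± 0.20 SE, adjusted p = 0.00919). Stag3 (chr5:138280240-138312393, plus strand) went from 18.5, 20.8 and 19.9 to 14.8, 13.5 and 15.4 CPM (−0.44 ± 0.067 SE, adjusted p = 2.28e-04). In each of these 4 genes the highest BPS library was below the lowest vehicle library. Rec8 stood at 41.0, 38.6 and 42.6 CPM with vehicle and 42.2, 40.6 and 41.6 CPM with BPS, with overlapping ranges. Dazl went from 4.52, 4.38 and 4.48 to 3.22, 2.71 and 2.67 CPM (−0.64 ± 0.12 SE, adjusted p = 0.00129). Stk31 went from 5.95, 4.92 and 4.85 to 4.59, 4.03 and 3.30 CPM (−0.40 ± 0.13 SE, adjusted p = 0.0336). Neither overlapped with vehicle, although the call of Stk31 was kept in only 1 of 6 fits that left out a library.

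Of the recombination genes, Tex11, an X-linked crossover factor, went from 2.42, 3.12 and 3.41 to 2.27, 1.63 and 2.07 CPM (−0.57 ± 0.17 SE, adjusted p = 0.0212). Tex15 went from 46.9, 47.5 and 44.7 to 35.9, 41.6 and 38.4 CPM (−0.26 ± 0.051 SE, adjusted p = 0.00151). Of the piRNA genes, Piwil2, the PIWI gene of early germ cells, went from 10.7, 11.04 and 11.9 to 8.38, 8.66 and 7.97 CPM (−0.42 ± 0.076 SE, adjusted p = 8.66e-04). BPS and vehicle libraries did not overlap for these 3 genes. Rnf17 went from 22.7, 22.6 and 20.9 to 19.0, 18.1 and 17.8 CPM (−0.27 ± 0.056 SE, adjusted p = 0.00256). Mov10l1 went from 3.92, 4.54 and 4.57 to 3.53, 3.13 and 3.47 CPM (−0.36 ± 0.12 SE, adjusted p = 0.0346). These 2 genes did not overlap with vehicle either. Tdrd12 stood at 11.7, 15.3 and 15.5 CPM with vehicle and 12.1, 10.6 and 12.2 CPM with BPS, was called near the threshold and overlapped (−0.27 ± 0.098 SE, adjusted p = 0.0497). Tex14 went from 18.3, 17.2 and 17.9 to 15.2, 12.1 and 14.2 CPM (−0.37 ± 0.076 SE, adjusted p = 0.00236). Leaving out vehicle replicate 2, vehicle replicate 3 or BPS replicate 2 left 7, 8 and 8 members called, and Dazl, Sycp1, Stag3, Piwil2, Tex14, Tex15 and Rnf17 were called in each fit that left out a library. The calls of Tex11, Mov10l1, Tdrd12 and Syce1 were kept in 3, 2, 2 and 1 of these 6 fits. In 1 fit of all 42 libraries 0 members were called. Shares of all genes called in these fits are not given here, so the counts cannot be set against them.

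Markers of other states moved in the same libraries. All 8 pluripotency markers fell (median −0.39, summed 2926 to 2999 CPM with vehicle and 2258 to 2507 CPM with BPS), as did 5 of 8 primordial germ cell markers (Prdm14 −0.46 ± 0.052, Kit −0.33 ± 0.040), whereas 8 of the 10 mesoderm and endoderm genes rose (median 0.50, summed 509 to 534 and 675 to 782 CPM, Mixl1 1.42 ± 0.085). Of the other meiosis and piRNA genes 5 of 20 tested fell, with Sohlh2, a germ cell transcription factor, at −0.53 ± 0.11 SE, adjusted p = 0.00240, and 0 rose. Of the 15 silencing regulators 3 rose and 4 fell, with Tet2 at −0.59 ± 0.039 and Tet1 at −0.43 ± 0.029, both of which encode enzymes that oxidise methylated cytosine. The ribosomal and structural RNAs summed to 286 to 9851 CPM with vehicle and 267 to 2525 CPM with BPS, and without vehicle replicate 1, the library with the highest sum, 12 members were called. The share of all genes called without that library is not given here. The part of the other markers in the result was not tested.

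PGCLCs derived from exposed iPSCs showed no member past the test. By limma 0 of 33 were called (0% of all genes in either direction), with 3 lower and 0 higher at an unadjusted p under 0.05 and 0 by limma-voom. The median was −0.24 against 0.0021 over all genes, and 26 of 33 differences were negative. Syce2 stood at 44.2, 50.4 and 45.1 CPM with vehicle and 40.1, 34.4 and 37.9 CPM with BPS (−0.31 ± 0.078 SE, adjusted p = 0.207), and its groups did not overlap. Dazl stood at 4.95, 2.49 and 4.75 CPM with vehicle and 3.38, 2.43 and 3.503 CPM with BPS. Piwil2 stood at 15.96, 7.34 and 15.3 CPM with vehicle and 8.45, 7.56 and 13.4 CPM with BPS. Vehicle replicate 2 lay apart from the other vehicle libraries for both, within or below the BPS range, and BPS replicate 3 was the highest BPS library for both. Leaving out any of the 6 libraries left 0 members called, and shares of all genes in these fits are not given here. The pluripotency markers had a median of −0.39 in the same comparison, with 0 of 8 called.

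In Sertoli cultures exposed to 1 µM, Stag3 and Dazl fell and no member rose. Of 37 members tested, 2 fell (1.48% of all genes) and 0 rose (3.76%), while 11 were lower and 0 higher at an unadjusted p under 0.05 and limma-voom called 2 lower. The median was −0.34 against 0.0096 over all genes, and 32 of 37 differences were negative. Stag3 went from 4.79, 5.08 and 4.66 to 2.27, 2.09 and 3.48 CPM (−0.92 ± 0.17 SE, adjusted p = 0.00658). Dazl went from 9.57, 10.02 and 10.3 to 6.32, 5.57 and 7.83 CPM (−0.61 ± 0.11 SE, adjusted p = 0.00658). Every BPS library was below every vehicle library for both genes. Short of the threshold, Ddx4 stood at 3.12, 4.39 and 3.66 CPM with vehicle and 1.88, 2.32 and 3.09 CPM with BPS (−0.62 ± 0.18 SE, adjusted p = 0.0527). Sycp3 stood at 2.23, 2.28 and 2.66 CPM with vehicle and 1.40, 1.61 and 1.72 CPM with BPS (−0.59 ± 0.18 SE, adjusted p = 0.0603). Stra8 stood at 6.72, 6.88 and 4.31 CPM with vehicle and 3.35, 3.63 and 5.09 CPM with BPS (−0.56 ± 0.17 SE, adjusted p = 0.0647). The groups of Stra8 overlapped, and those of Ddx4 and Sycp3 did not. Group medians were negative throughout, from −0.61 for the translation regulators to −0.23 for the recombination genes. Piwil2, with the highest CPM among the members in these cells, stood at 28.7, 29.3 and 28.1 CPM with vehicle and 27.6, 25.9 and 28.5 CPM with BPS, and the ranges overlapped.

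The Sertoli count depended on single libraries. Without BPS replicate 1 it was 0, without vehicle replicate 1 it was 5 (Hormad1, Meioc and Ddx4 added) and without BPS replicate 3, the highest BPS library for Dazl, Stag3 and Ddx4, it was 5 (Ddx4, Stra8 and Tex15 added). Shares of all genes called in these fits are not given here, so the counts cannot be set against them. Beside the members, 0 of 7 spermatogonia markers tested passed, with a median of −0.42: Kit stood at 3.88 ± 0.411 CPM with vehicle and 2.89 ± 0.236 CPM with BPS (SD, n = 3), Sall4 at 1.35 ± 0.257 and 0.852 ± 0.570 CPM, and the list summed to 357 to 375 and 364 to 378 CPM with Uchl1 included. Of 3 spermatid markers tested 0 passed (median −0.19), the sums were 6.70 to 6.98 and 5.79 to 6.05 CPM, and Acr had no vehicle read. Of 8 Sertoli markers 1, Clu, fell (−0.26 ± 0.051 SE, adjusted p = 0.00875), and the list summed to 5677 to 5903 and 4595 to 5296 CPM. Of the 22 other meiosis and piRNA genes tested, 1 rose, Trip13, an ATPase that removes HORMA-domain proteins and is also used in dividing somatic cells (0.23 ± 0.055 SE, adjusted p = 0.0221). The part of these cells and markers in the result was not tested.

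In granulosa cells no call was made among the 14 members that passed the filter. By limma 0 were called (2.6% of all genes in either direction), 0 passed an unadjusted p of 0.05 and limma-voom called 0. The median was −0.059 against 0.022 over all genes. Tdrd5 stood at 59.2, 63.6 and 59.9 CPM with vehicle and 67.02, 61.98 and 64.01 CPM with BPS (0.080 ± 0.039 SE, adjusted p = 0.334). Rec8 stood at 4.77, 5.29 and 4.57 CPM with vehicle and 4.28, 4.62 and 4.68 CPM with BPS (−0.11 ± 0.11 SE, adjusted p = 0.703). Both overlapped. Without vehicle replicate 2, which stood apart, 0 members were called too, and the share of all genes in that fit is not given here. Of the 5 ribosomal and structural RNAs 4 fell, Rmrp most (−3.72 ± 0.85 SE, adjusted p = 0.0213), with sums of 532 to 6004 CPM with vehicle and 302 to 868 CPM with BPS, and their part in the result was not tested. The other 28 members were too low to be tested, and 7 of the 42 had no read in the BPS libraries. Oocyte markers summed to 1.20 to 5.60 CPM with vehicle and 0.781 to 1.51 CPM with BPS, of which Gdf9 gave 1.28 ± 0.869 and 0.791 ± 0.293 CPM, and 4 of the 10 listed were not analysed here.

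The responses of the cell types to 1 µM were then compared directly, as the difference between the response of PGCLCs or Sertoli cells and that of dose-series iPSCs. Dazl rose in iPSCs and fell in PGCLCs and in Sertoli cultures, and the responses of Rec8 also differed from that of iPSCs in both. Of 38 members tested, 12 had a lower response in directly exposed PGCLCs than in iPSCs (6.75% of all genes) and 0 a higher one (6.64%), with a median difference of −0.38 against 0.013 over all genes. Of 41 members tested, 4 had a lower response in Sertoli cells (2%) and 0 a higher one (2.21%), with a median of −0.40 against 0.0044. Both tests use the same iPSC libraries, so they are not independent of each other. Washout also differed, at 8 h for PGCLCs and 24 h for the others, and cannot be told apart from the cell type in the first of these. In the second, the Sertoli cultures were not fully pure, and the part of remaining germ cells was not tested.

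**Figure D4:**
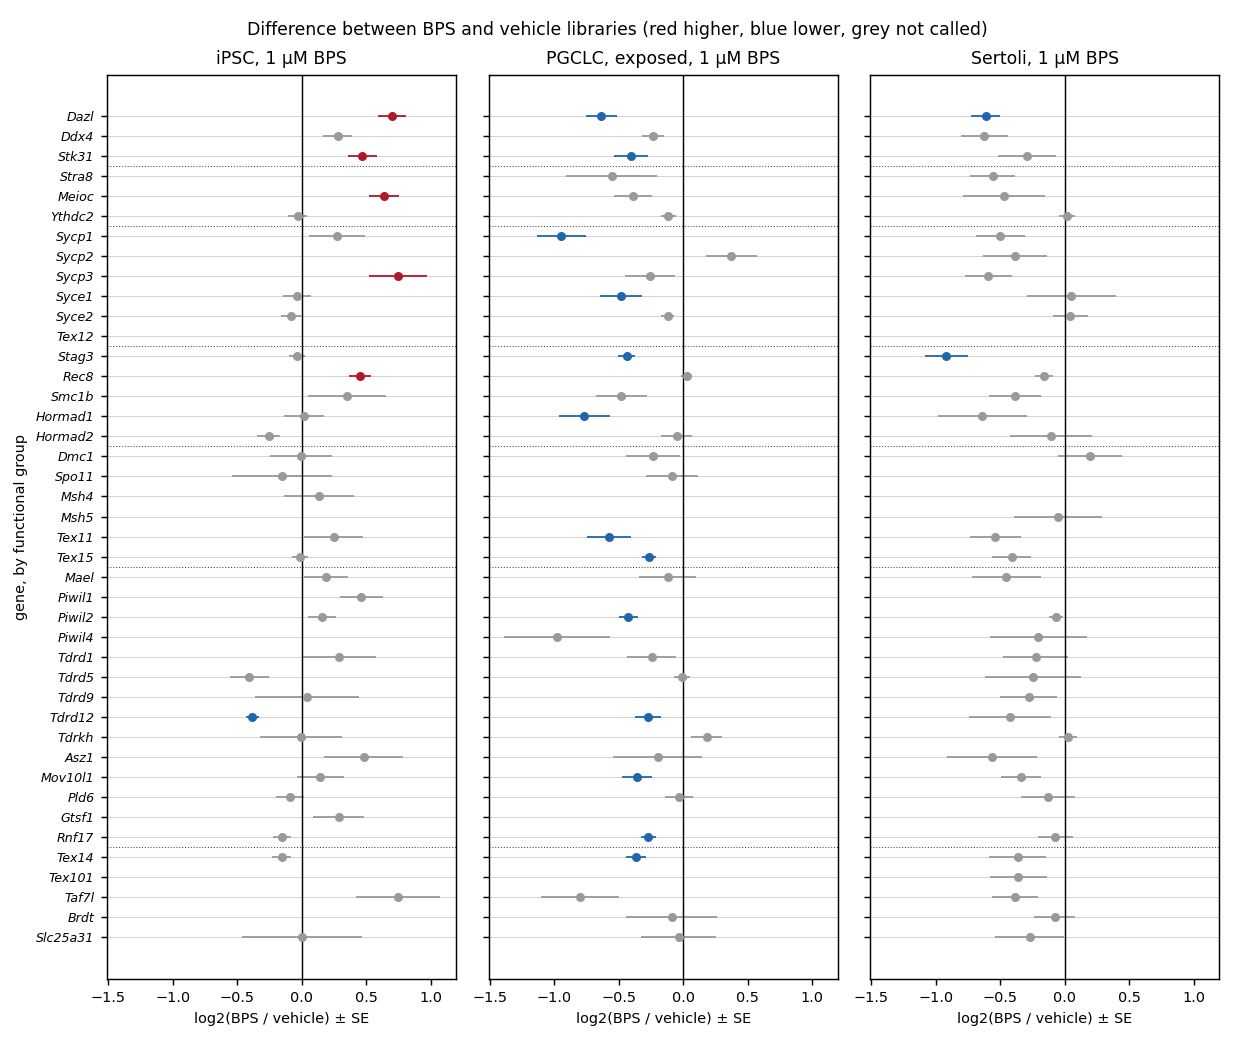
Log2 difference between 1 µM BPS and vehicle with its SE for each gene tested, in iPSCs of the dose series, directly exposed PGCLCs and Sertoli cells (red, called higher; blue, called lower; grey, not called; an empty row was below the filter). Called points lie to the right of 0 in iPSCs except Tdrd12, and to the left of 0 in PGCLCs and Sertoli cells.

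For Dazl the log2 responses with their SE were 0.70 ± 0.11 in iPSCs, −0.64 ± 0.12 in PGCLCs and −0.61 ± 0.11 in Sertoli cells, and the differences from iPSCs were −1.33 ± 0.16 SE, adjusted p = 1.47e-04 for PGCLCs and −1.31 ± 0.18 SE, adjusted p = 0.00353 for Sertoli cells. For Rec8 the responses were 0.45 ± 0.086, 0.026 ± 0.045 and −0.16 ± 0.067, with differences of −0.42 ± 0.097 SE, adjusted p = 0.0101 and −0.61 ± 0.11 SE, adjusted p = 0.0125. These 2 genes kept both calls in every alternative tried. By limma, Meioc (−1.03 ± 0.19 SE, adjusted p = 0.00264), Stk31 (−0.87 ± 0.19 SE, adjusted p = 0.00780), Piwil2 (−0.58 ± 0.13 SE, adjusted p = 0.00870) and Stag3 (−0.40 ± 0.087 SE, adjusted p = 0.00743) also differed between PGCLCs and iPSCs and kept the call whichever library was left out. In the Sertoli comparison Stag3 (−0.88 ± 0.20 SE, adjusted p = 0.0316) and Sycp3 (−1.34 ± 0.30 SE, adjusted p = 0.0289) were called as well, and Stag3 kept its call in 3 of 12 fits that left out a library. Leaving out vehicle replicate 2 or 1 µM replicate 3 of the iPSCs, or replicate 2 of either PGCLC group, reduced the PGCLC count from 12 to 7. The Sertoli count fell from 4 to 2 without vehicle replicate 2 or 1 µM replicate 3 of the iPSCs, without Sertoli vehicle replicate 2 or 3, and without Sertoli BPS replicate 1 or 2. Shares of all genes called in these fits are not given here.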

How the data were processed

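The authors aligned reads of strand-specific poly(A) libraries to mm10 and counted them per gene with Rsubread, after quality control with FastQC, and computed CPM with TMM scaling in edgeR. The table that the authors deposited held log2 CPM with 0.0313 CPM added, so that a gene with 0 reads stood at −5.00. Whole reads were recovered from it (100.0% of values whole within 0.05), with scaling factors of 0.877 to 1.108. Differences were tested with limma 3.58.1 in R 4.3.3 on the deposited log2 values (moderated variances with a trend, two-sided), among genes of at least 0.5 CPM in at least 3 libraries of the fit, with Benjamini-Hochberg adjustment over all genes tested and a threshold of 0.05. The 3 doses were fitted together, each other exposure by itself, cell types over the vehicle groups, and differences of responses as interaction terms. Fold changes are on the log2(CPM + 0.0313) scale and understate those of low genes. A group with 0 reads was given a floor of 3 counts over the group, and ratios against 1 to 3 reads carry an exact 95% binomial interval, counting error only. The fits were tested on simulated data and repeated with another added CPM, no filter, a stricter filter, 2 other scalings, limma-voom on recovered reads, a replicate block, other sets of libraries and each library left out. Exon lengths came from GENCODE vM21 and promoters from RefSeq GRCm38.p6. Tables and figures used Python 3.11.15, pandas 2.3.3, numpy 2.4.6 and matplotlib 3.10.9. Members, lists and rules were chosen with earlier results of these data known. Values per library are given for members called in a BPS comparison (where over 8 were called, at least the 4 largest changes in each direction), the 4 largest called changes in each direction of a cell type contrast, and the 3 highest members per kilobase of each vehicle group; members named beyond these were chosen after their values were seen.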

Additional observations from a re-analysis of the deposited data

Results flagged for a closer look

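For 12 members the response to 1 µM BPS differed between directly exposed PGCLCs and dose-series iPSCs by the interaction test of limma, and each was lower in PGCLCs. The differences of log2 responses were −1.55 for Taf7l, −1.33 for Dazl, −1.22 for Sycp1, −1.03 for Meioc, −1.01 for Sycp3, −0.87 for Stk31, −0.78 for Hormad1, −0.58 for Piwil2, −0.51 for Ddx4, −0.42 for Rec8, −0.40 for Stag3 and −0.25 for Tex15. Their adjusted p by limma with Benjamini-Hochberg adjustment ranged from 1.47e-04 for Dazl to 0.0484 for Ddx4. Sycp1, Hormad1, Piwil2, Stag3 and Tex15 fell in PGCLCs and were not called in iPSCs, Meioc, Sycp3 and Rec8 rose in iPSCs and were not called in PGCLCs, and Ddx4 and Taf7l passed the test in neither cell type alone. Dazl and Stk31 were called in opposite directions. For Taf7l the responses were 0.75 ± 0.33 in iPSCs and −0.80 ± 0.30 in PGCLCs.

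For 4 members the response differed between Sertoli cells and the same iPSC libraries: −1.34 for Sycp3 (adjusted p = 0.0289 by limma), −1.31 for Dazl, −0.88 for Stag3 and −0.61 for Rec8. Dazl was called in opposite directions, Stag3 fell in Sertoli cells alone by the test, and Sycp3 and Rec8 rose in iPSCs and were not called in Sertoli cells. The part of germ cells remaining in the Sertoli cultures was not tested. No group of 4 or more libraries existed, so single far-lying samples were not tested for.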

How the results depend on the processing

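Of 212 calls of members over the 16 comparisons, 209 were kept with 0.5 CPM added before the log, 203 without a filter, 171 of 171 still tested with a minimum of 2 CPM, 211 under each rescaling (median-ratio and upper-quartile), 210 with limma-voom on recovered reads and 1216 of 1361 when each library was left out in turn, and none was reversed. With all 42 libraries in 1 fit 165 were kept: the number of members called became 2 for iPSCs at 1 µM, 3 at 50 µM, 3 at 100 µM, 1 for Sertoli cells, 0 for directly exposed PGCLCs, 1 for the second iPSC experiment and 3 for the PGCLC minus iPSC response, and the cause was not tested. Leaving out 1 library gave 5 to 12 members at 50 µM, 0 to 5 in Sertoli cells, 7 to 16 in directly exposed PGCLCs, 0 to 5 in the second iPSC experiment, 7 to 12 for the PGCLC minus iPSC and 2 to 6 for the Sertoli minus iPSC response. Shares of all genes called in these fits are not given here. Deviations of same-numbered vehicle and BPS libraries from their group means had correlations of −0.554 to 0.333. Differently numbered libraries were not set beside them, and derived PGCLCs were not set against the iPSCs they came from. Whether the numbers pair the samples therefore cannot be decided. With a replicate block 207 of 212 calls were kept, the PGCLC minus iPSC count was 8 and the Sertoli count 3. Upper-quartile rescaling moved the split of all genes called from 2511 higher and 1843 lower to 1737 and 2570 in directly exposed PGCLCs, from 2139 and 2175 to 2504 and 1646 in iPSCs at 50 µM, from 588 and 232 to 329 and 309 in Sertoli cells, from 1153 and 1172 to 615 and 1552 for the PGCLC minus iPSC response and from 395 and 357 to 218 and 467 for the Sertoli minus iPSC response. In granulosa cells the split went from 306 and 103 to 181 and 161. It also shifted the median of all genes between PGCLCs and Sertoli cells from 0.13 to 0.33. Members with under 0.5 CPM were mostly out of reach at this depth, and 28 of 42 were so in granulosa cells.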
